A study of Danio rerio with 16 samples.

Results

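Interferon and RNA sensing genes were followed in zebrafish embryos in which an endogenous retrovirus had been knocked down. The set described here was 7 named genes: isg15, mxa and rsad2, whose products act against viruses, the transcription factors irf1b and irf7, and the RNA sensors ifih1 and dhx58. Each name was matched to the gene symbols paired with the Ensembl identifiers of the deposited table, which gave 7 genes of 32520.

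The vertebrate interferon response starts when receptors in the cytoplasm bind double-stranded RNA. IFIH1 (also called MDA5) is such a receptor, and DHX58 (LGP2) is a relative of it that tunes the signal. Adaptors and kinases then activate interferon regulatory factors such as IRF7, interferon is secreted, and its receptors act through JAK kinases and transcription factors to switch on genes such as isg15, mxa and rsad2. In zebrafish these 3 genes are widely used as readouts of that response.

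All embryos were wild type and had been injected at 0 hpf (hours post fertilization) with an LNA, or locked nucleic acid, a short modified antisense oligonucleotide that binds RNA tightly. Controls received a Scrambled LNA, and knockdown embryos received the Bik-1 LNA, named for the retrovirus BHIKHARI. Whole embryos were sampled at 8, 11, 14 and 18 hpf, from gastrulation into the formation of somites. There were 8 groups of 2 libraries, 16 in all, made from polyadenylated RNA. The labels do not say whether replicates came from separate clutches or injections, so the p-values reflect the spread of these samples alone, and that spread may be technical. No uninjected embryos were analysed here. Both groups were injected with an LNA, but the LNAs differed in sequence. Effects of the Bik-1 LNA other than on its target were not tested and cannot be told apart from those of the knockdown. Library totals ran from 4399855 to 7694887 counts, so that a level of 1 CPM (counts-per-million of the library total) stood for 4.40 to 7.69 counts. BHIKHARI_LTR, the repeat family that holds the long terminal repeats of the targeted retrovirus, was lower in both knockdown libraries than in both controls at all 4 times. At 8 hpf it stood at 2807 to 2822 CPM in controls and 677.1 to 751 CPM in the knockdown, and at 18 hpf at 98.94 to 104.3 CPM and 34.84 to 36.2 CPM.

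These genes were near the limit of detection. Of the 7 genes, 3 passed the filter on low counts (a CPM of at least 1.64 in 2 or more libraries) and were tested: isg15, mxa and irf1b. The control libraries above that level numbered 2 for isg15, 1 for mxa and 0 for irf1b, against 4, 3 and 3 knockdown libraries. mxa and irf1b thus entered the test through the knockdown libraries, and how many of the tested genes were higher there says little. The genes RSAD2, IRF7, IFIH1 and DHX58 were too low to test and are given as counts. Over the 8 control libraries, a count of 0 allows a level of up to 0.0610 CPM, and over the 8 knockdown libraries up to 0.0618 CPM. These limits and the intervals below cover counting error only. CPM values below are scaled by TMM, a normalization that sets the libraries' typical gene to the same level.

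The main change was in isg15 (ENSDARG00000086374), which encodes a small ubiquitin-like protein that is attached to other proteins during infection. Averaged over the 4 times, isg15 RNA rose in the knockdown. At 8 hpf the controls held 6.55 and 4.25 CPM, from 40 and 25 counts, and the knockdown libraries 11.4 and 10.1 CPM, from 63 and 62 counts. At 11 hpf the controls held 0.816 and 0.158 CPM, from 5 and 1 counts, and the knockdown 1.14 and 1.835 CPM, from 7 and 15 counts. Both knockdown libraries lay above both controls at each of these times. At 14 hpf the groups overlapped, with 0.164 and 1.065 CPM in controls and 1.72 and 0.693 CPM in the knockdown. At 18 hpf neither control library held a count, and the knockdown libraries held 9 and 6 counts, 1.31 and 1.11 CPM.

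The group means of isg15 were 5.40 ± 1.63 CPM in controls and 10.7 ± 0.934 CPM in the knockdown at 8 hpf (SD, n = 2). They were 0.487 ± 0.466 and 1.49 ± 0.494 CPM at 11 hpf, and 0.615 ± 0.637 and 1.21 ± 0.729 CPM at 14 hpf. At 18 hpf the controls were at 0 and the knockdown at 1.21 ± 0.139 CPM. The knockdown mean was thus above the control mean at all 4 times, which held for 14.4% of all 17756 features tested. Both knockdown libraries exceeded both controls at 3 of the 4 times, as they did at 3 or more times for 4.17% of all features. In that direction the groups did not overlap for 16.7% of features at 8 hpf, 13.3% at 11 hpf and 20.2% at 18 hpf.

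In edgeR's quasi-likelihood test, with Benjamini-Hochberg adjustment over all features, isg15 was called for the average of the 4 times (adjusted p = 0.028). Of the 3 genes tested it was the only one called in a knockdown comparison. In that comparison 1.63% of all features were called, 0.332% as higher and 1.3% as lower. The fitted average log2 fold change was 2.35 (SE 0.51), a value that depends on how the fit handles the controls at 0 at 18 hpf. Summed over all times, isg15 had 79 counts in controls and 174 in the knockdown, a ratio of 2.23 after division by the library totals (95% exact interval 1.70 to 2.95). DESeq2, another count test, also called isg15 for the average (adjusted p = 0.0064).

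At no single time was isg15 called. In the 8 hpf embryos the log2 fold change was 0.99 (SE 0.53) with an adjusted p of 0.63. It was 1.60 (SE 0.79) in those of 11 hpf, with an adjusted p of 1, and 0.88 (SE 0.82) in those of 14 hpf, with an adjusted p of 0.92. Leaving out single libraries moved the 11 and 14 hpf values by over 1.5 times, while the 8 hpf value ran from 0.70 to 1.32. At 11 hpf the log2 fold change was 3.103 without control replicate 1 and 0.87 without control replicate 2. At 14 hpf it was 0.14 without control replicate 1 or knockdown replicate 1, 2.69 without control replicate 2 and 1.43 without knockdown replicate 2. At 18 hpf, 15 counts against 0 put isg15 at least 4.92-fold higher in the knockdown when the control group is set to 3 counts. The exact 95% interval, which also takes in the counting error of the 15, begins at 3.53-fold. The quasi-likelihood test at 18 hpf gave an unadjusted p of 0.0016 and an adjusted p of 0.99. With no filter beyond 1 count, which tests more features, isg15 was called there (adjusted p = 0.017), as were 0.474% of features. The genes of the set with an unadjusted p under 0.05 numbered 0 of 3 at 8 hpf, 0 at 11 hpf, 1 (irf1b) at 14 hpf and 2 (isg15 and irf1b) at 18 hpf and for the average, and DESeq2 called none at a single time. Such a p was reached by 9.19%, 4.64%, 5.58%, 4.5% and 15.4% of all features in that order. irf1b entered the test through the knockdown libraries, so how many genes of the set reached such a p says little. Among all features 0.344% were called at 8 hpf, 0.00563% at 11 hpf, 0.00563% at 14 hpf and 0.0113% at 18 hpf, so few features of any kind passed at single times. Whether the isg15 effect differed between times gave an adjusted p of 1, with 0% of features called and 2.64% at an unadjusted p under 0.05. None of the tested genes of the set reached an unadjusted p under 0.05 in that test, and DESeq2 called none of the set.

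The average call for isg15 lay close to the threshold. Leaving out any of 8 of the 16 libraries took the adjusted p to between 0.051 and 0.1. The libraries were the control 14 hpf replicate 1, both controls at 18 hpf, the knockdown replicate 1 at 8 hpf, replicate 2 at 11 hpf, replicate 1 at 14 hpf and both knockdown libraries at 18 hpf. The fitted log2 fold change of the average stayed between 2.16 and 2.80. Its 18 hpf part, with controls at 0, stayed between 5.78 and 6.03 in these fits. They thus could not test how far the average rests on 18 hpf. Averaged over 11, 14 and 18 hpf only, the isg15 log2 fold change was 2.80 with an adjusted p of 0.09, where 0.315% of all features were called. An average without 18 hpf was not worked out.

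**Figure D1:**
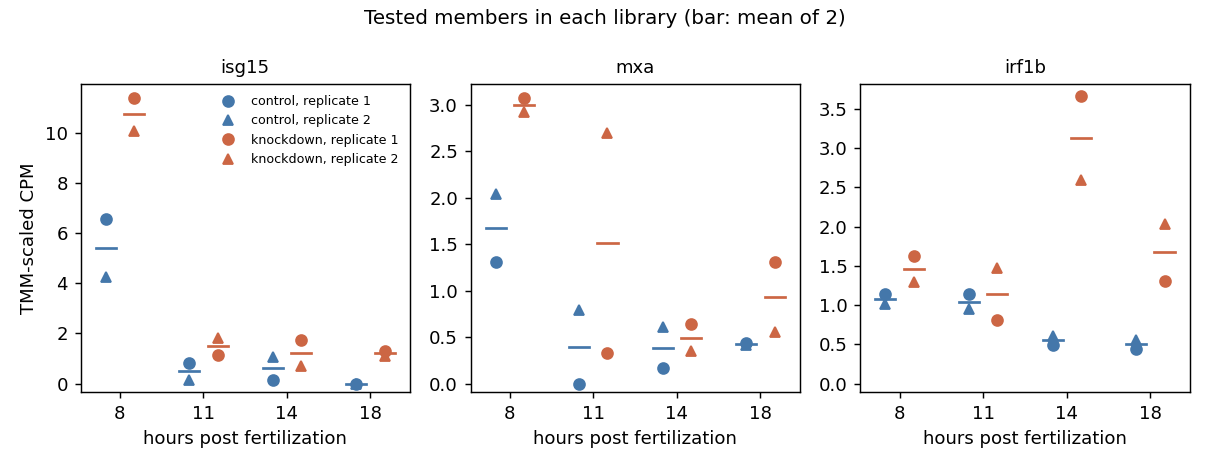
TMM-scaled CPM (vertical axis, a separate linear scale in each panel) of the 3 tested interferon and RNA sensing genes at 8, 11, 14 and 18 hpf (horizontal axis). Circles are replicate 1, triangles replicate 2 and bars the mean of 2 libraries, with controls in blue and knockdown in red. The knockdown points of isg15 lie above the controls at 8, 11 and 18 hpf, and those of irf1b at 8, 14 and 18 hpf. Of all features, 4.17% lie above at 3 or more times.

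mxa (ENSDARG00000021688) encodes a dynamin-like GTPase of the Mx family, which blocks viral replication. At 8 hpf the controls held 1.31 and 2.04 CPM, from 8 and 12 counts, and the knockdown libraries 3.07 and 2.92 CPM, from 17 and 18 counts. At 11 hpf the controls held 0 and 5 counts and the knockdown 2 and 22 counts. At 8 hpf the groups did not overlap, and at 11 hpf the knockdown replicates lay on either side of the upper control, at 0.325 and 2.69 CPM against 0.788 CPM. At 14 hpf the counts were 1 and 4 in controls and 3 and 2 in the knockdown, which overlapped. At 18 hpf they were 2 and 3 against 9 and 3, or 0.440 and 0.418 CPM against 1.31 and 0.556 CPM. Both knockdown libraries lay above both controls in CPM there, although knockdown replicate 2 and control replicate 2 held 3 counts each. Both knockdown libraries exceeded both controls for 16.7% of all features at 8 hpf and 20.2% at 18 hpf.

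mxa was not called. From the earliest to the latest time its log2 fold changes were 0.83 (SE 0.82), 1.92 (SE 1.02), 0.29 (SE 1.25) and 1.13 (SE 1.102), with adjusted p-values of 0.85, 1, 0.99 and 0.99. The average was 1.04 (SE 0.54, unadjusted p = 0.07, adjusted p = 0.37). Over all libraries mxa had 35 counts in controls and 76 in the knockdown, a ratio of 2.20 (1.46 to 3.39). The interval of this ratio lies above 1, and the test, which also takes in the spread between replicates, did not pass. The 11 hpf value rested on knockdown replicate 2: without that library the log2 fold change was -0.28 (SE 1.44). The mx genes are similar in sequence, and how reads shared between them were counted is not given in the sources used here.

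RSAD2 (ENSDARG00000004952) encodes viperin, an enzyme whose product stops viral polymerases. It was almost undetected, with 1 count in control replicate 1 at 14 hpf and 2 counts in control replicate 1 at 18 hpf. The other 14 libraries, all knockdown libraries among them, held 0. With 3 counts in controls and 0 in the knockdown, the interval of the ratio reached up to 2.45, so neither direction could be told at this depth.

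Of the regulatory factors, irf1b was not called in a knockdown comparison of the main test, and IRF7 was too low to test. irf1b (ENSDARG00000043249) belongs to the interferon regulatory factors. It is a paralog of irf1a and a zebrafish counterpart of IRF1, which drives interferon-stimulated genes and is itself induced by interferon. It held 1.15 and 1.02 CPM in controls and 1.63 and 1.30 CPM in the knockdown at 8 hpf, and 1.14 and 0.946 CPM against 0.811 and 1.47 CPM at 11 hpf. At 14 hpf the controls held 3 and 4 counts, 0.492 and 0.609 CPM, and the knockdown libraries 17 and 15 counts, 3.66 and 2.60 CPM. At 18 hpf the controls held 2 and 4 counts, 0.440 and 0.558 CPM, and the knockdown 9 and 11 counts, 1.31 and 2.04 CPM. The groups overlapped at 11 hpf, and both knockdown libraries lay above both controls at 8, 14 and 18 hpf. That was so for 16.7% of all features at 8 hpf, 21.2% at 14 hpf and 20.2% at 18 hpf, and for 4.17% at 3 or more times.

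The distance between the irf1b groups was widest at 14 hpf, with 0.550 ± 0.0823 CPM in controls and 3.13 ± 0.752 CPM in the knockdown (SD, n = 2). There the log2 fold change was 2.45 (SE 0.63), with an unadjusted p of 0.0013 and an adjusted p of 0.57. At 18 hpf it was 1.66 (SE 0.68, unadjusted p = 0.026, adjusted p = 0.99). At 8 and 11 hpf it was 0.42 (SE 0.62) and 0.15 (SE 0.61). The average over the 4 times was 1.17 (SE 0.32, unadjusted p = 0.002, adjusted p = 0.08), and irf1b was not called in any knockdown comparison. The 39 control and 86 knockdown counts gave a ratio of 2.24 (1.51 to 3.35). The ratio was 5.71 (2.47 to 15.3) at 14 hpf and 3.28 (1.27 to 9.99) at 18 hpf. The difference between times was not called (unadjusted p = 0.067, adjusted p = 1). irf1b had 0 control libraries above the filter level and entered the test through the knockdown, so its p-values say little. Without knockdown 11 hpf replicate 1, irf1b passed for the average, at 1.25 with an adjusted p of 0.039, and with a replicate block at 1.18, also with an adjusted p of 0.039.

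IRF7 (ENSDARG00000045661), the factor that amplifies interferon production, held 28 counts in controls and 38 in the knockdown, a ratio of 1.38 (0.822 to 2.33). At 8 hpf the controls held 5 and 4 counts and the knockdown 0 and 2, so that the knockdown lay below. The share of all features that lay below in this way was not worked out. At 11 hpf the counts were 4 and 7 against 15 and 6, at 14 hpf 2 and 3 against 2 and 4, and at 18 hpf 1 and 2 against 1 and 8. IRF7 thus had no single direction over the times.

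The RNA sensors were barely detected. IFIH1 (ENSDARG00000018553) had 5 counts in controls and 13 in the knockdown, with at most 2 in any control library and at most 4 in any knockdown library. Its ratio was 2.64 with an interval of 0.882 to 9.44. DHX58 (ENSDARG00000089463) had 3 counts in controls and 5 in the knockdown (ratio 1.69, 0.329 to 10.9), and 12 of its 16 libraries were at 0. No difference in either sensor was detectable at this depth.

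**Figure D2:**
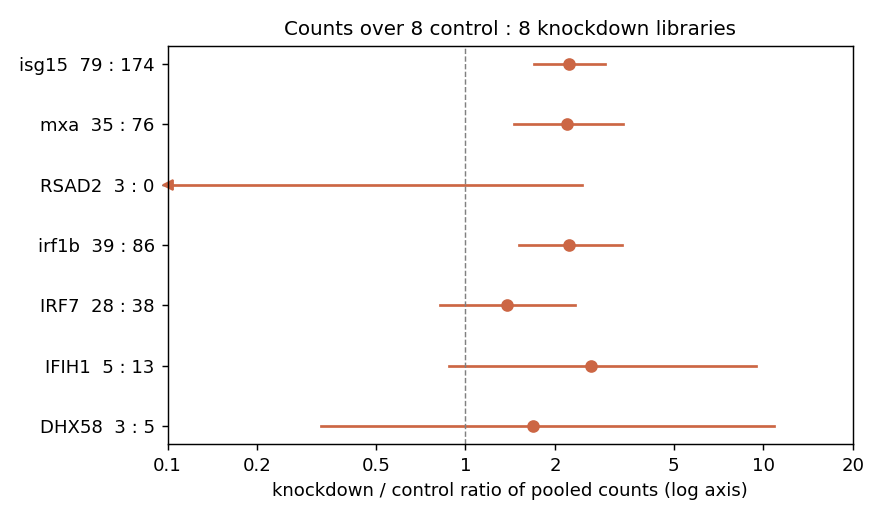
Ratio of knockdown to control counts (horizontal log axis) for each of the 7 genes, summed over 8 control and 8 knockdown libraries and divided by the library totals. Bars are 95% exact intervals of counting error and the counts stand beside each name as control : knockdown. The intervals of isg15, mxa and irf1b lie above 1, but the share of all features with such an interval was not worked out. The arrow marks RSAD2, at 0 in the knockdown.

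During the development of the control embryos, which were injected with the Scrambled LNA, isg15 was the only one of the 3 tested genes to be called. In controls, isg15 fell between 8 and 11 hpf, from 65 counts to 6, with a log2 change of -3.43 (SE 0.72, adjusted p = 0.0022). That step called 30.4% of all features, 18.4% as higher and 12% as lower. The mxa change was -2.01 (SE 1.03, adjusted p = 0.15), from 20 to 5 counts, and that of irf1b -0.05 (SE 0.63). None of the 3 was called from 11 to 14 hpf, where 2.64% of features were, or from 14 to 18 hpf, where 11.6% were. From 14 to 18 hpf isg15 went from 8 counts to 0, at least 2.60-fold lower when the 18 hpf group is set to 3 counts, with an adjusted p of 0.077. The exact interval of the 18 to 14 hpf ratio reached up to 0.601. With no filter beyond 1 count that fall was called (adjusted p = 0.027), as were 10.3% of features. In the knockdown too, the group mean of isg15 was highest at 8 hpf.

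The isg15 call from 8 to 11 hpf held without any single library, with an adjusted p of 0.0013 to 0.025. Without control 11 hpf replicate 2, mxa was called as falling over that step (adjusted p = 0.039).

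The rest of the pathway was followed in 136 further genes in 7 lists: sensors, adaptors and kinases, interferon regulatory factors, ligands and receptors, JAK and STAT genes, interferon-stimulated genes, and negative regulators. Of these, 12 had no counts at all and 80 were tested. None of the 80 was called in a knockdown comparison at any time or on average, and DESeq2 also called none. For mxe, rnf213b, ifit8 and STING1 both groups were at 0 at some time. Their SEs for the average ran from 327 to 4651, so the main test of the average could not call them. They are still counted among the 80 in the shares below. Other settings did call some of the 80. With a replicate block within each time, 6 were called for the average and 2 at 8 hpf, where the same fit called 11.8% and 3.5% of all features. With no filter beyond 1 count, gbp1 and TYK2 were called for the average and gbp1 at 8 hpf, beside 3.92% and 1.19% of features. At an unadjusted p under 0.05, 5 of the 80 were higher and 1 lower in the earliest embryos (8 hpf), where 3.77% of all features were higher and 5.41% lower. At 11 hpf 3 and 1 were, against 1.9% and 2.73% of features, and at 14 hpf 3 and 0, against 2.16% and 3.42%. At 18 hpf 1 and 1 were, against 2.48% and 2.02%. For the average 7 and 3 of the 80 were, against 7.3% and 8.14%. The share that was higher exceeded that of all features at 8, 11 and 14 hpf and for the average, but not at 18 hpf. The share that was lower lay below that of all features in each of these comparisons. With both directions pooled, a smaller share of the pathway genes than of all features reached such a p for the average. These shares rest on few genes, and their difference was not tested. For the average, 58 of 80 genes (72.5%) had a log2 fold change above 0, against 51.7% of all features, with a median of 0.14 against 0.01. With 6 genes that had a group at 0 set to their bound, the median was also 0.14. At each single time 50 of the 80 (62.5%) lay above 0, against 49.8% to 50.5% of all features. The 80 include mxe and rnf213b, described below, which passed the filter only through knockdown libraries of 8 hpf. How many others passed through the knockdown alone was not worked out, so the shares that lay higher say little about the pathway as a whole.

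By role, the average lay above 0 for 4 of 6 tested sensors, 16 of 20 adaptors and kinases and 3 of 4 interferon regulatory factors. It did for 6 of 6 tested receptors, 4 of 8 JAK and STAT genes, 13 of 17 interferon-stimulated genes and 12 of 19 negative regulators. The list medians ran from 0.02 for JAK and STAT genes to 0.20 for interferon regulatory factors.

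**Figure D3:**
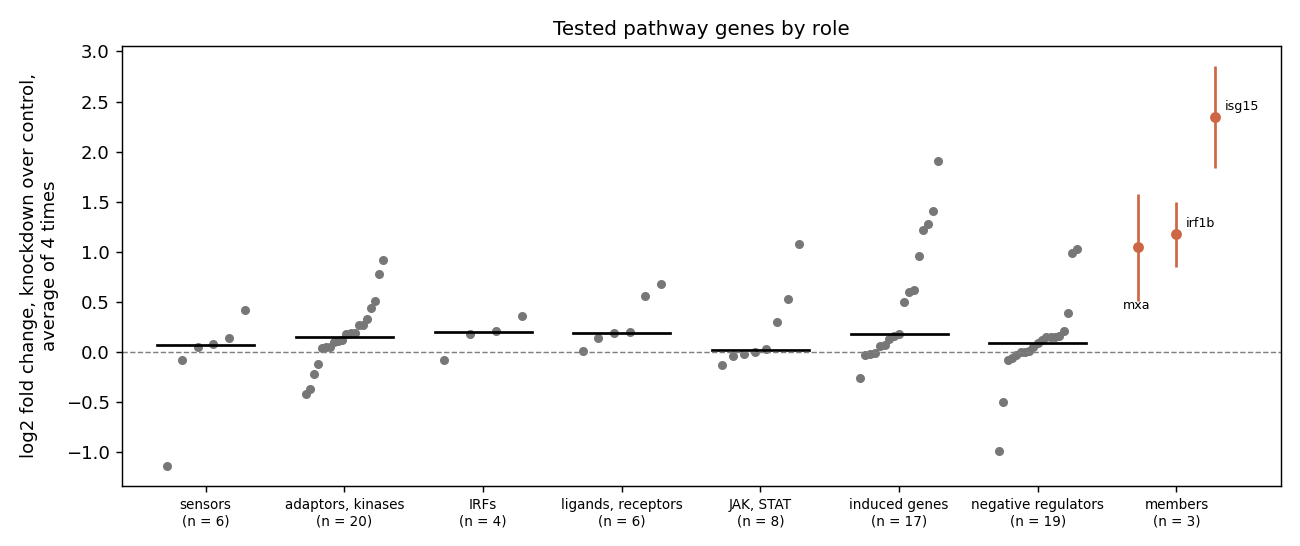
Log2 fold change of knockdown over control averaged over the 4 times (vertical axis) for each tested pathway gene, grouped by role (horizontal axis). Grey points are single genes, black bars list medians, and red points with SE bars the 3 tested genes of the set. List medians lie between 0.02 and 0.20, and isg15 lies at 2.35.

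The interferons themselves were at or near 0. ifnphi2, ifnphi4, ifng1 and ifng1r had no counts in any library, and ifnphi1 had 0 in controls and 5 in the knockdown. ifnphi3 had 21 counts in controls and 11 in the knockdown. The receptor genes were measured better: crfb1 had 226 and 247 counts and a log2 fold change of 0.19 (SE 0.23), ifngr1 had 96 and 134 counts and 0.55 (SE 0.27), and neither was called. No ligand was abundant enough to be tested.

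Since no further gene was called, the 3 with the lowest p for the average are described. gbp1, an interferon-induced GTPase, had a log2 fold change of 1.21 (SE 0.33, unadjusted p = 0.0017, adjusted p = 0.076). At 8 hpf it held 0 and 1 counts in controls and 6 and 13 in the knockdown, a ratio of 19.2 (3.05 to 796). The quasi-likelihood test at 8 hpf gave a log2 fold change of 3.97 (SE 0.98, unadjusted p = 0.00085, adjusted p = 0.11), so gbp1 was not called there. Its groups overlapped at 11 hpf, with 30 and 16 counts against 25 and 21. In controls gbp1 rose from 1 count at 8 hpf to 46 at 11 hpf (ratio 48.5, 8.29 to 1958, adjusted p = 0.00034). The controls of 8 hpf thus held almost no gbp1 counts.

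TYK2, a kinase bound to interferon receptors, had a log2 fold change of 1.07 (SE 0.30, unadjusted p = 0.0023, adjusted p = 0.086). It held 3 and 2 counts in controls and 5 and 19 in the knockdown at 8 hpf, and 3 and 4 against 10 and 20 at 11 hpf. The knockdown lay above at both times, as it did for 16.7% of all features at 8 hpf and 13.3% at 11 hpf. At 14 hpf the groups overlapped, at 22 and 22 against 12 and 25 counts. The SOCS3 gene ENSDARG00000026611, which encodes a brake on JAK signalling, was lower, at -0.50 (SE 0.17, unadjusted p = 0.011, adjusted p = 0.17). It held 43 and 58 counts in controls and 26 and 31 in the knockdown at 11 hpf. The other SOCS3 gene, ENSDARG00000025428, held 62 counts over all controls and 81 over the knockdown (ratio 1.32, 0.940 to 1.87).

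A further pair of genes was chosen after their values were seen. mxe, another gene of the Mx family, held 2 and 4 counts in controls and 19 and 11 in the knockdown at 8 hpf, and 0 and 0 against 0 and 12 at 11 hpf. It was at 0 in every library of 14 and 18 hpf. Over all libraries it had 6 and 42 counts (ratio 7.10, 3.002 to 20.4). rnf213b, a relative of the interferon-induced ubiquitin ligase RNF213, held 3 and 5 counts against 18 and 17 at 8 hpf (log2 fold change 2.13, SE 0.90, adjusted p = 0.48). At 11 hpf it held 0 and 1 against 3 and 11, and at 18 hpf it was at 0. Like isg15 and mxa, both were highest at 8 hpf. Both passed the filter on low counts only through the knockdown libraries of 8 hpf. Their means there were 2.61 CPM (mxe) and 3.01 CPM (rnf213b), against 0.504 and 0.671 CPM in controls. That both were tested and lay higher in those libraries thus says little.

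At 11 hpf the knockdown replicates differed from each other in several of these genes. Replicate 2 held 15 counts of isg15, 22 of mxa, 12 of mxe and 11 of rnf213b, and replicate 1 held 7, 2, 0 and 3. IRF7 went the other way, with 15 counts in replicate 1 and 6 in replicate 2. These genes were picked after their values were seen, and the share of all features that differed as much was not worked out. Replicate 2 was also the deepest library, at 7694887 counts. It is among the libraries listed above without which isg15 was not called for the average.

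**Figure D4:**
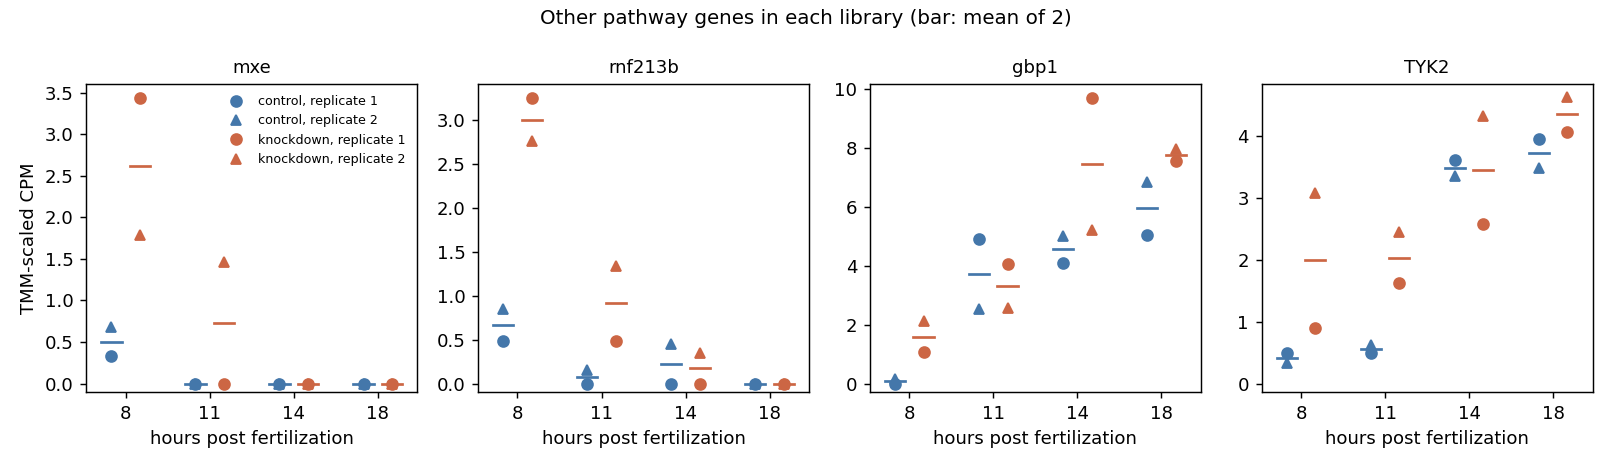
TMM-scaled CPM (vertical axis, a separate linear scale in each panel) of mxe, rnf213b, gbp1 and TYK2 at 8, 11, 14 and 18 hpf (horizontal axis). Circles are replicate 1, triangles replicate 2 and bars the mean of 2 libraries, with controls in blue and knockdown in red. At 8 hpf both knockdown libraries of each gene lie above both controls, as for 16.7% of all features. At 18 hpf mxe and rnf213b are at 0 in all 4 libraries. mxe and rnf213b were chosen after their values were seen and passed the filter only through the knockdown libraries of 8 hpf.

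Some pathway genes changed with age in the control embryos. From 8 to 11 hpf 14 of the 80 tested rose and 7 fell, a smaller share in each direction than the 18.4% and 12% of all features. Without control 8 hpf replicate 2 the 21 calls became 9, and without control 11 hpf replicate 1 they became 13. Besides gbp1, rnasel3 rose, by 3.64 (SE 0.73, adjusted p = 0.0016) on the log2 scale. NLRC3, a negative regulator of innate sensing in mammals, had a log2 change of -2.37 (SE 0.48, adjusted p = 0.0017). From 11 to 14 hpf, where 1.95% of all features rose and 0.681% fell, TYK2 alone was called, rising by 2.59 (SE 0.63, adjusted p = 0.036), from 7 to 44 counts. That call was lost without any one of 8 libraries, the 4 controls of these times and the 4 libraries of 18 hpf. From 14 to 18 hpf, where 7.76% of all features rose and 3.85% fell, the mitochondrial NLR gene NLRX1 rose by 1.23 (SE 0.29, adjusted p = 0.011) and the kinase gene jak2a by 0.66 (SE 0.20, adjusted p = 0.041). These 2 calls became 0 without either control of 14 hpf or control 18 hpf replicate 2, and 11 when only the groups compared were fitted, a fit that gave 11 in place of 21 from 8 to 11 hpf and 0 in place of 1 from 11 to 14 hpf.

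Whole embryos are mixtures, in which more cells of a type and more RNA per cell cannot be told apart. The summed level of 22 leukocyte marker genes was 346 to 455 CPM in controls and 446 to 567 CPM in the knockdown at 8 hpf, which overlapped. It was 197 to 216 against 238 to 273 CPM at 11 hpf and 119 to 132 against 135 to 178 CPM at 14 hpf, with the knockdown above, and 105 to 109 against 80.2 to 100.03 CPM at 18 hpf, with the knockdown below. Most of that sum came from LCP1, CEBPA and the CXCR4 genes, while the defining markers lyz, ptprc and marco had 2 counts each over all controls and 3, 9 and 0 over the knockdown. The other markers of the list went both ways. Some held more counts in controls: SPI1 had 174 against 122, spi1a 26 against 13, RUNX3 157 against 124 and the MFAP4 gene ENSDARG00000090557 160 against 130. Some held more in the knockdown: LCP1 had 4608 in controls against 6761, CEBPA 2053 against 2482, IRF8 9 against 23 and csf1ra 3 against 10. Of the 8 leukocyte markers tested none was called in a knockdown comparison, and for the average 3 lay above 0. SPI1 was at 0 in both groups at 8 hpf, and with an SE of 686 it could not be called for the average. In each library 5 to 14 of the 22 were at 0. The summed level of 12 genes of the enveloping layer, none of which was at 0, was higher in the knockdown at 11 hpf (16712 to 17913 against 18146 to 20760 CPM) and overlapped at the other times. Of the 12, a pair of keratin genes was called as higher for the average, the comparison in which isg15 was called: krt18a.1 at 0.40 (SE 0.052, adjusted p = 0.0013) and krt8 at 0.32 (SE 0.062, adjusted p = 0.013). At 18 hpf krt18a.1 was called as higher as well, at 0.84 (SE 0.10, adjusted p = 0.0036). For the average 8 of the 12 lay above 0, with a median of 0.068. The summed level of 20 yolk syncytial layer genes was higher in the knockdown at 18 hpf (6769 to 7111 against 8811 to 10280 CPM) and overlapped before. Of the 17 yolk syncytial genes tested none was called in a knockdown comparison, and 12 lay above 0 for the average, with a median of 0.33. The part of these cell types in the isg15 result was not tested.

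Genes of any kind whose 8 group means followed the same course were found by Pearson's r of log2 CPM over the groups, among 15321 genes with a symbol. Closest to isg15 were si:dkey-89b17.4 (r = 0.993), tmem79a (r = 0.985) and DAZAP2 (r = 0.985). Closest to mxa were PPM1A (0.977), spag17 (0.973) and KAT2B (0.972). The best match of irf1b was lower, with r = 0.904 for MARCHF2, 0.903 for WWTR1 and 0.892 for WASHC3. None of these is a gene of the interferon lists, and with 8 means that share the course of development such values describe a likeness of shape only.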

How the data were processed

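The authors deposited raw read counts, whole numbers per Ensembl gene and per repeat family, for 16 libraries. STAR and the build GRCz11 are named in the submitters' processing notes. Which program made the counts, whether it used strand and how it treated multi-mapping reads is not given in the sources used here. Each of the 16 files of single samples matched the combined table. A table that pairs Ensembl identifiers with symbols named 29201 of 32520 genes. No sequences or coordinates are printed, and some genes are not reported here.

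A joint edgeR 4.0.16 fit (R 4.3.3) covered the genes and the 1036 families, with the robust quasi-likelihood F-test and TMM. After filterByExpr by group, 17756 features remained (16894 genes, 862 families), holding 99.758% or more of the counts of every library. The fit used all 16 libraries, with 8 residual degrees of freedom and a biological coefficient of variation of 0.177. A feature was called at an adjusted p under 0.05. The average is the mean of the 4 contrasts within a time. Alternatives were DESeq2 1.42.0, other size factors, no filter beyond 1 count, genes alone, a replicate block, only the groups compared, and leaving out each library. Replicates differed beyond sampling noise in all groups (chi-square per degree of freedom 4.17 to 35.3).

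Ratios of pooled counts use library totals and exact 95% intervals, and a group at 0 was set to 3 counts over the group. Genes outside the set were named as every called pathway gene, or the 3 with the lowest p for the average where none was called, and for the control steps as the 2 largest called rises and falls with a mean of at least 1 CPM. The genes, the lists and the rules were chosen with earlier results of these data known.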

Additional observations from a re-analysis of the deposited data

How the results depend on the processing

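At single times and for the difference between times, none of the 7 genes was called in the main test or under the alternatives run, except isg15 at 18 hpf with no filter beyond 1 count (1 called, adjusted p = 0.017, where 0.474% of features were called). RSAD2, IRF7, IFIH1 and DHX58 lay under the filter of the main test and could not be called there. For the average the number called, 1, became 0 over 11, 14 and 18 hpf only and 2 with a replicate block within each time, when irf1b joined isg15 (log2 fold change 1.18, adjusted p = 0.039). It ran from 0 to 2 when 1 library was left out. In controls, from 8 to 11 hpf the number was 1, and 1 to 2 with a library left out, and from 14 to 18 hpf it was 1 instead of 0 with no filter beyond 1 count. The adjusted p of isg15 for the average ran from 0.00012 to 0.09 over the alternatives that kept every library. The replicate numbers were not taken as pairs, because the labels do not say what same-numbered libraries share. The correlation of same-numbered deviations was 0.321, 0.495, 0.163 and 0.075 at 8, 11, 14 and 18 hpf. It was above 0 at each time, so these values do not decide against pairing. The block called 11.8% of features for the average and 6 of the further pathway genes against 0 without it (TYK2, STAT3, TRAF6, gbp1, RELA and trim25), and PTPN2 and gbp1 at 8 hpf.

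Leaving out 1 library turned the sign of some uncalled log2 changes. For knockdown over control they ran from -0.28 to 6.28 (mxa, 11 hpf), -0.32 to 1.45 (mxa, 14 hpf) and -0.36 to 0.48 (irf1b, 11 hpf). In controls from 8 to 11 hpf irf1b ran from -0.19 to 0.083. From 11 to 14 hpf isg15 ran from -1.45 to 1.86, and mxa from -1.18 to 4.33, and from 14 to 18 hpf mxa ran from -0.49 to 1.27 and irf1b from -0.32 to 0.040. The cause was not tested. The number of all features called for the average, 289, ran from 149 to 994 with a library left out. With 2 libraries a group and 4 of the 7 genes too low to test, depth limits what could be called.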

Other observations

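Of the 44 pathway genes that had counts but were too low to test, 6 had an exact interval of the ratio above 1 over all libraries and 1 below 1. The share of all low-count features with such an interval was not worked out, so these numbers say nothing about the pathway as a set. The genes named below were chosen after their values were seen. CGAS, the sensor of cytoplasmic DNA, had 2 counts over the 8 control libraries and 20 over the 8 knockdown libraries (ratio 10.1, 95% exact interval 2.46 to 89.5). At 18 hpf both controls were at 0 and the knockdown libraries held 5 and 8 counts, at least 4.27-fold higher when the control group is set to 3 counts, with an exact interval that begins at 3.002-fold. xaf1, whose mammalian relative is induced by interferon and promotes cell death, had 5 and 22 counts (ratio 4.46, 1.65 to 15.1). irf3, a factor that switches on interferon genes, had 12 and 26 counts (ratio 2.20, 1.07 to 4.78), and ifit9, of a family of interferon-induced genes whose mammalian members bind RNA, 12 and 31 (ratio 2.62, 1.31 to 5.60). gbp2, an interferon-induced GTPase, had 31 and 58 (ratio 1.90, 1.21 to 3.04), and IRF8, a factor of myeloid cells that is also on the leukocyte list, 9 and 23 (ratio 2.59, 1.15 to 6.36). In the other direction, the ADARB1 gene ENSDARG00000003544, which encodes an RNA-editing enzyme, had 33 and 13 (ratio 0.399, 0.193 to 0.779). At single times 8 of 137 ratios of the 44 genes had an interval above 1 and 5 below 1, again with no share of all features to set them against. Among the latter, ifnphi3 had 10 counts in controls and 0 in the knockdown at 8 hpf. These intervals cover counting error only, and genes picked for their values in this way support nothing beyond these libraries.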
